A study of Homo sapiens with 12 samples.

Results

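ELAVL1, ELAVL2, ELAVL3, ELAVL4, CELF1, CELF2, CELF3, CELF4, MBNL1 and MBNL2 are genes of 3 families of RNA-binding proteins that act on splicing and on the stability of messenger RNA. They were taken by symbol from a table of gene counts, where they are 10 of 59653 gene rows. All 10 passed the filter on low counts, which left 24671 genes to test. The samples are 12 RNA-seq libraries of human neurons made from induced pluripotent stem cells of IMR-90, an established fetal lung fibroblast line. A negative control siRNA was given in 6 libraries (siNC) and an siRNA against ZCCHC17, a zinc finger protein, in the other 6 (siZCC). All libraries come from 1 line, and nothing says that replicates are separate cultures. NPC, an abbreviation left unexplained in the labels, stands in every sample title. The p-values therefore measure the spread between these libraries, which may be technical.

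ELAVL proteins, also called Hu proteins, bind AU-rich and U-rich stretches of RNA and mostly stabilise the transcripts they bind. ELAVL1 (HuR) is found in nearly all cells, whereas ELAVL2 (HuB), ELAVL3 (HuC) and ELAVL4 (HuD) are largely neuronal and appear as progenitors leave the cell cycle. CELF proteins bind GU-rich RNA. CELF1 and CELF2 promote decay and regulate splicing, and CELF3 to CELF6 are mostly neuronal splicing regulators. MBNL proteins are zinc finger proteins that bind GC-containing motifs within pyrimidine-rich RNA. They often act against CELF1 on the same exons, and they are trapped by the expanded repeat RNA of myotonic dystrophy.

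Members of a family are paralogs, so the counts depend on reads that tell them apart. The stretch of 60 coding bases in which the ELAVL genes are most alike is shown for each of the 4, from the GRCh38 genome with GENCODE release 29 transcripts. It lies in ELAVL4 at chr1:50201065-50201124 (+ strand), in ELAVL2 at chr9:23692611-23692670 (− strand), in ELAVL3 at chr19:11454580-11454639 (− strand) and in ELAVL1 at chr19:7963534-7963593 (− strand). Each window lies in 1 coding exon and is printed 5′ to 3′ on the strand of the gene. Capitals mark the bases that differ from ELAVL4.
ELAVL4: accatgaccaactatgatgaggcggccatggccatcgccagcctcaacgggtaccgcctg
ELAVL3: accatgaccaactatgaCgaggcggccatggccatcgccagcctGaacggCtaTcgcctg
ELAVL1: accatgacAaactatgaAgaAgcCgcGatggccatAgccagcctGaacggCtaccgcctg
ELAVL2: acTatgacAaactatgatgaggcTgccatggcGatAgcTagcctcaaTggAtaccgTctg
Even here ELAVL3 differs from ELAVL4 at 4 of the 60 bases, ELAVL1 at 8 and ELAVL2 at 9.

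The same was done for MBNL1, at chr3:152456305-152459273, and MBNL2, at chr13:97366497-97391324, both on the + strand. Their most alike 60 coding bases cross an exon junction, so these spans include an intron. Capitals mark the bases that differ from MBNL1.
MBNL1: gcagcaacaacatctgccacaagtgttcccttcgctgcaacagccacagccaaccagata
MBNL2: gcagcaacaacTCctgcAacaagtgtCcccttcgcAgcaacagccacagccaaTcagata
These 2 differ at 6 bases. The longest coding run shared without a mismatch was 26 bases for ELAVL3 with ELAVL4 and 17 bases for MBNL1 with MBNL2. Among CELF1 to CELF4, the longest such run was also 26 bases, for CELF1 with CELF3. CELF4 shared a longer run, of 47 bases, with CELF5, a family gene outside the members. No word of 50 bases from the transcripts of any member was found in another gene of its family. Other overlaps of exons exist: 1140 exonic bases of MBNL1 lie opposite the antisense gene MBNL1-AS1, and 256 bases of ELAVL3 lie on the same strand as another gene model. The strand setting of the counting is not given in the sources used here. MBNL1-AS1 had 287 to 499 counts per library, against 2106 to 3836 for MBNL1.

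Library totals were 90755953 to 120023356 counts in siNC and 76115083 to 105389055 in siZCC. ZCCHC17 itself was at 56.9 ± 2.49 CPM (each count as a rate per library total, scaled by TMM factors; mean ± SD, n = 6) in siNC and at 9.999 ± 0.507 in siZCC. The groups were far apart, with every siZCC library at 10.6 or less and every siNC library at 53.99 or more. Of 22 neuron markers 1 rose and 7 fell in siZCC, and their summed level was 5629 to 6359 CPM in siNC and 5199 to 5923 in siZCC. Markers of progenitors and of proliferation were also counted. SOX2 was at 621 ± 20.6 CPM and the proliferation marker MKI67 at 205 ± 16.8 in siNC, named here as defining markers. The 22 neuron markers ranged in siNC from the mature neuron marker RBFOX3, at 1.27 ± 0.148 CPM, to MAP2, at 1027 ± 104. The 8 astrocyte markers ranged in siNC from ALDH1L1, at 2.21 ± 0.181 CPM, to GFAP, at 616 ± 82.0. Of 12 proliferation markers, 11 fell and none rose, and their summed level was 936 to 1059 CPM in siNC and 752 to 871 in siZCC. In such bulk samples, fewer cells of a type and less RNA per cell cannot be told apart. None of the listed markers of any cell type was at 0 counts in all libraries.

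Knockdown of ZCCHC17 went with small decreases of ELAVL2 and ELAVL4, while the other 8 members did not pass the test. ELAVL4, a neuronal stabiliser of transcripts of growing neurites, was lower by 0.19 on the log2 scale in siZCC, and ELAVL2 by 0.16. The highest siZCC libraries lay within the siNC range for all 10 members. The samples are drawn one by one in the plot of levels by library, and the fold changes in the plot of intervals.

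**Figure D1:**
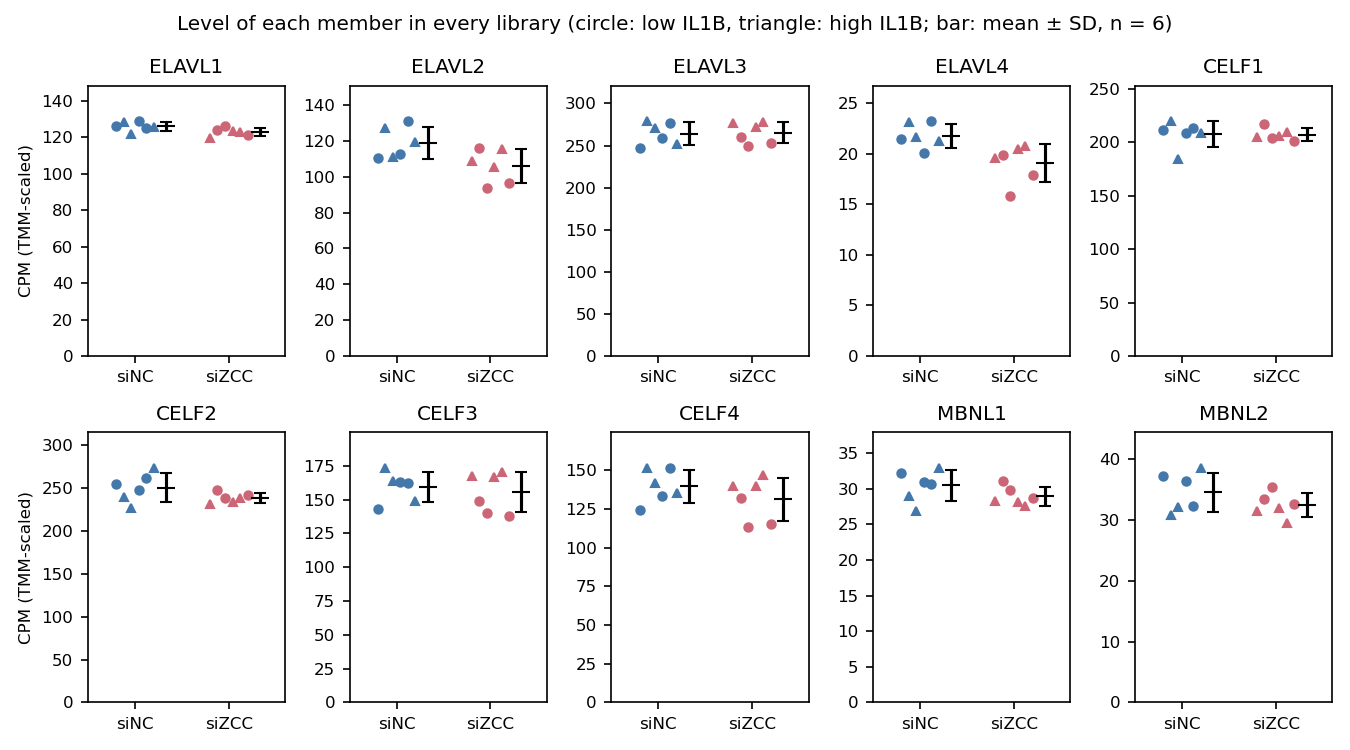
Level of each of the 10 genes (vertical axis, TMM-scaled CPM, from 0) in every siNC (blue) and siZCC (red) library, with the mean ± SD of 6 libraries beside each group. Triangles are the libraries with high and circles those with low IL1B counts. The groups overlap in every panel. ELAVL4 shows the clearest shift, with 4 of 6 siZCC libraries below all siNC libraries.

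ELAVL4 (chr1, 50048014 to 50203786, + strand) was the least abundant ELAVL gene. Its lowest, median and highest levels were 20.1, 21.5 and 23.2 CPM in siNC and 15.9, 19.7 and 20.8 CPM in siZCC. The highest siZCC library thus exceeded only the lowest siNC library, and the siZCC replicates 3 and 6 were lowest. The means were 21.8 ± 1.201 and 19.1 ± 1.87 CPM (SD, n = 6 each), and the siZCC level was 87.5% of siNC (95% interval 80.4% to 95.3%). In edgeR's quasi-likelihood test the log2 fold change was -0.19 (SE 0.058, Benjamini-Hochberg adjusted p = 0.0245). Without siNC replicate 2, the adjusted p was 0.0502.

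ELAVL2 (chr9, 23690104 to 23826337, − strand), expressed in neurons and germ cells, had 110.2, 116 and 131 CPM as lowest, median and highest levels in siNC. In siZCC these were 93.9, 107 and 116 CPM, with 4 of 6 libraries below all of siNC. The siZCC replicates 3 and 6 were again the lowest. Mean levels were 119 ± 8.87 and 106 ± 9.30 CPM (SD, n = 6 each), and the siZCC level was 89.4% of siNC (82.3% to 97.0%). The log2 fold change was -0.16 (SE 0.056, edgeR adjusted p = 0.0476). This call sits at the threshold. It was lost in 7 of the 12 fits that left out 1 library: without siNC replicates 2, 5 and 6 the edgeR adjusted p was 0.0967, 0.0997 and 0.078, and without siZCC replicates 1, 3, 4 and 6 it was 0.0562, 0.0943, 0.0867 and 0.0928.

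ELAVL3 (chr19, 11451326 to 11481046, − strand), the third neuronal member, was level between the groups. Its lowest, median and highest values were 247, 265 and 279 CPM in siNC and 249, 266 and 278 CPM in siZCC, nearly the same range. The interval of its siZCC level was 94.97% to 106% of siNC (log2 fold change 0.00, SE 0.038, edgeR adjusted p = 0.945).

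ELAVL1 (chr19, 7958579 to 8005659, − strand), the ubiquitous member that shuttles between nucleus and cytoplasm, varied least. It ranged from 122 to 129 CPM in siNC, with a median of 126, and from 119.7 to 126 CPM in siZCC, with a median of 123. The coefficient of variation was 1.99% in siNC and 1.84% in siZCC, against 5.09% and 4.68% for ELAVL3. Its siZCC level was 97.6% of siNC (94.1% to 101%), with a log2 fold change of -0.04 (SE 0.025, edgeR adjusted p = 0.343).

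None of the 4 CELF members passed the test. CELF1 (chr11, 47465933 to 47565569, − strand), which promotes deadenylation of GU-rich transcripts, had a median of 209.9 CPM in siNC and 205 CPM in siZCC. It ranged from 184 to 219.8 CPM in siNC and from 201 to 217 CPM in siZCC, so that the siZCC libraries lay wholly within the siNC range. The log2 fold change was -0.00 (SE 0.036, edgeR adjusted p = 0.963). CELF1 shares 374 exonic bases with NDUFS3 and PTPMT1 on the opposite strand.

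CELF2 (chr10, 10798397 to 11336675, + strand), its closest relative by function, had 227, 251 and 274 CPM as lowest, median and highest levels in siNC and 232, 239 and 248 CPM in siZCC. Here all 6 siZCC libraries lay below the siNC median, yet none below the lowest siNC library. The log2 fold change was -0.07 (SE 0.038, edgeR adjusted p = 0.217). Without siNC replicate 3, the lowest of its group, the log2 fold change was -0.10 and the edgeR adjusted p 0.0494, so that this library decides the call. CELF2 is also called, with an adjusted p of 0.0396, after a correction for GC content and length that was added after seeing the data.

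CELF3 (chr1, 151702404 to 151716814, − strand) and CELF4 (chr18, 37243047 to 37566037, − strand) are the brain-enriched splicing regulators of this family. CELF3 ranged from 143 to 174 CPM in siNC, with a median of 163, and from 138 to 171 CPM in siZCC, with a median of 158. For CELF4, siNC ranged from 124 to 152 CPM around a median of 139, and siZCC from 113 to 147 CPM around a median of 136. In both genes 2 of 6 siZCC libraries, replicates 3 and 6, were below all of siNC, and the rest were spread over the siNC range. The log2 fold changes were -0.04 (SE 0.058, edgeR adjusted p = 0.713) for CELF3 and -0.09 (SE 0.063, edgeR adjusted p = 0.342) for CELF4.

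MBNL1 (chr3, 152243828 to 152465780, + strand), the main MBNL protein of muscle, had 26.9, 30.9 and 32.97 CPM as lowest, median and highest levels in siNC and 27.6, 28.5 and 31.1 CPM in siZCC. MBNL2 (chr13, 97221434 to 97394120, + strand), the main MBNL protein of brain, had 30.8, 34.3 and 38.6 CPM in siNC and 29.5, 32.3 and 35.4 CPM in siZCC. In each gene 5 of 6 siZCC libraries lay below the siNC median, with the ranges overlapping. The log2 fold changes were -0.07 (SE 0.046, edgeR adjusted p = 0.272) for MBNL1 and -0.09 (SE 0.056, edgeR adjusted p = 0.261) for MBNL2. MBNL1-AS1, whose exons lie opposite those of MBNL1, was at 4.06 ± 0.293 CPM in siNC and 3.91 ± 0.365 in siZCC (n = 6 each, edgeR adjusted p = 0.635).

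**Figure D2:**
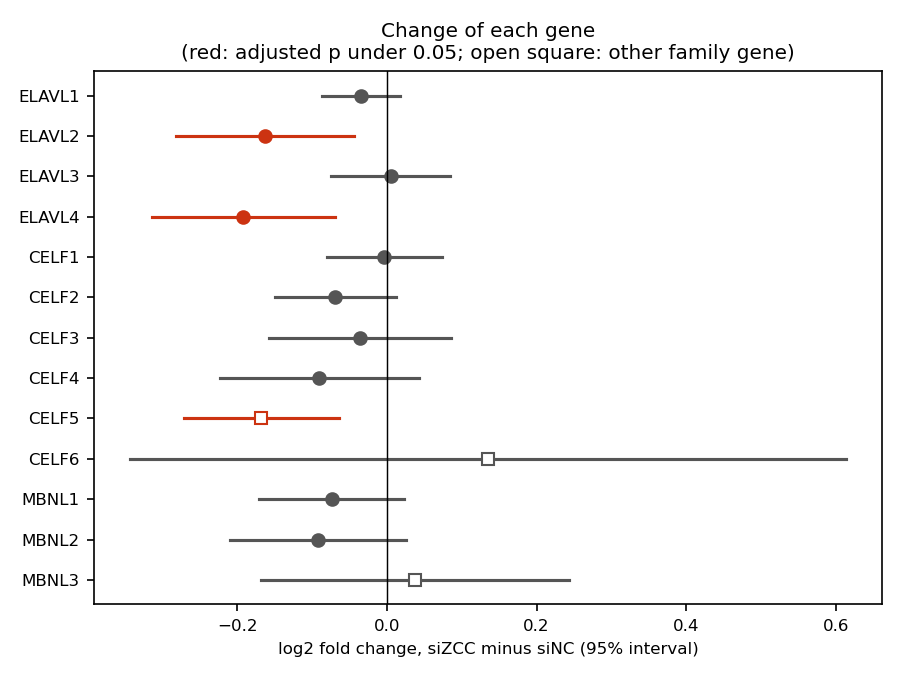
Log2 fold change of siZCC against siNC (horizontal axis) with its 95% interval from the edgeR fit, for the 10 genes (filled circles) and the other 3 genes of the families (open squares). Red marks an adjusted p under 0.05. ELAVL2, ELAVL4 and CELF5 lie below 0 with intervals that exclude it, and CELF6, at 12 to 36 counts, has the widest interval.

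The 3 remaining genes of the families complete the picture. CELF5, another neuronal CELF protein, fell: its lowest, median and highest levels were 101, 110.3 and 116 CPM in siNC and 87.0, 98.9 and 108 CPM in siZCC. As with ELAVL2 and ELAVL4, 4 of 6 siZCC libraries lay below all of siNC. The log2 fold change was -0.17 (SE 0.049, edgeR adjusted p = 0.0217). It passed in each of the 12 fits without 1 library and in the libraries with low IL1B counts (-0.24, edgeR adjusted p = 0.0272), but not in those with high IL1B counts (-0.10, edgeR adjusted p = 0.202). MBNL3, which is mostly expressed in proliferating precursors, was at 4.87 ± 0.689 and 4.99 ± 0.647 CPM (n = 6 each, edgeR adjusted p = 0.829). CELF6 was barely counted, at 12 to 36 counts per library (edgeR adjusted p = 0.723), and 88.7% of its words of 50 bases occur in overlapping gene models, so its count is uncertain.

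Over the 10 members, 2 passed the test, both lower in siZCC, or 20% of them. Among all genes tested, 22.2% passed, 10.8% lower and 11.4% higher, so the members' share is near the background. Among the 8971 genes at least as abundant as ELAVL4, 32.1% passed, 13.9% lower. No member had groups that did not overlap, against 9.74% of all genes. The fold change was below 0 in 9 of 10 members and in 50.4% of all genes, and the members' median was -0.07 against -0.0016. The median size of the change without its sign was 0.07 for the members and 0.11 for all genes, but 0.07 among genes at least as abundant as ELAVL4.

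The 95% intervals of the members reached 0.052 to 0.134 log2 units to either side, and none extended below -0.31 or above 0.09. In simulated counts for this comparison over 24377 genes, with changed genes at 20 CPM or more, a log2 change of 0.1 was recovered in none of 50 genes. At a change of 0.2 the share was 62% and at 0.5 it was 100%, and 6.43% of the calls were on unchanged genes. The changes seen for ELAVL2 and ELAVL4 both lie in size between these first 2 sizes. Only 50 genes were changed at each size, whereas 5481 of 24671 genes passed in the data. The adjusted p was therefore harder to pass in the simulation, and in this respect its shares can understate the recovery in the data. Each gene was also drawn on its own, without variation that genes share between libraries. The effect of that on the shares was not examined, so they are not a lower bound.

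Levels were compared between genes only per length, as CPM per kilobase of the exon union of GENCODE release 29. ELAVL3 was the highest of all, at 55.5 ± 2.82 CPM per kb in siNC (SD, n = 6), and made up 55.6% of the ELAVL family. ELAVL2 followed with 23.1% and ELAVL1 with 18.2%, while ELAVL4 held 3.13%. In the CELF family CELF3 led at 35.8 ± 2.51 CPM per kb. Next came a group whose neighbours overlap in their ranges over libraries: ELAVL2 (23.1), CELF2 (22.8), CELF4 (21.4), CELF1 (19.9), CELF5 (18.2) and ELAVL1 (18.1 CPM per kb). MBNL2 was at 7.04 ± 0.657 CPM per kb and made up 67.1% of its family. ELAVL4 (3.13) and MBNL1 (3.05 CPM per kb) overlapped with each other, and MBNL3 and CELF6 were at 0.399 and 0.0728 CPM per kb.

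In siZCC ELAVL3 (55.7 ± 2.61 CPM per kb) and CELF3 (35.0 ± 3.33) again stood highest. ELAVL4 (2.74 ± 0.268) was then below MBNL1 (2.90 ± 0.13), with overlapping ranges. The exon union counts every annotated exon, and genes with many long isoforms are thereby set lower. With the length of the longest transcript instead, ELAVL3 (55.8 CPM per kb) and CELF3 (49.0) stayed the 2 highest, CELF4 (34.5) moved ahead of ELAVL2 (31.2) and CELF2 (31.2), and ELAVL4 (5.49) stayed next to MBNL1 (4.72).

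**Figure D3:**
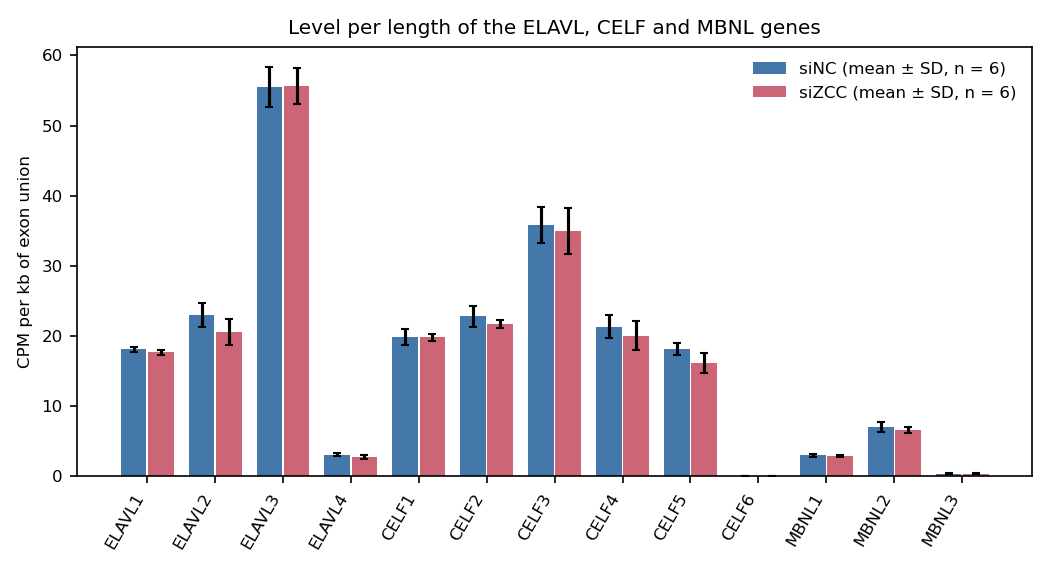
Level per length (vertical axis, CPM per kb of exon union, from 0) of the 13 ELAVL, CELF and MBNL genes in siNC (blue) and siZCC (red). Bars are means and error bars SDs of 6 libraries. ELAVL3 and CELF3 stand highest in both groups, and CELF6 and MBNL3 are close to 0.

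The ratio of 2 genes within a library does not depend on how libraries are scaled, and 13 ratios of members of the same family were compared. ELAVL3 to ELAVL4 was the 1 ratio of the 13 whose groups did not overlap. Ratios of other genes were not computed, so a shift of this kind cannot be called particular to these families. In siNC its log2 ratio of counts ran from 3.53 to 3.69, with a mean of 3.601 ± 0.057, and in siZCC from 3.71 to 3.97, with a mean of 3.801 ± 0.096 (SD, n = 6 each). All 6 siZCC libraries lay above all 6 siNC libraries. The difference of 0.20 (SE 0.046) had p = 0.00216 in an exact two-sided permutation test, which is the smallest p that this design allows, and 0.0281 after adjustment over the 13 ratios. Leaving out siNC replicate 1 or siZCC replicate 3 gave differences of 0.19 and 0.17 with an adjusted p of 0.0563 each in the exact permutation test.

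ELAVL2 was also lower relative to ELAVL3 in siZCC, with a log2 ratio of -1.16 ± 0.080 in siNC and -1.33 ± 0.092 in siZCC, but this did not pass after adjustment (difference -0.17, exact permutation p = 0.0152, adjusted 0.0985). Without siZCC replicate 2 its difference was -0.20 and its adjusted p 0.0422 in the exact permutation test. ELAVL1 to ELAVL4 differed by 0.16 (exact permutation p = 0.0455, adjusted 0.197). ELAVL2 to ELAVL4 differed by 0.03 (SE 0.040), with an exact permutation p of 0.433. In the CELF and MBNL families the differences of the 7 ratios lay between -0.03 and 0.09, each with overlapping groups, and MBNL1 to MBNL2 differed by 0.02 (SE 0.040, exact permutation p = 0.658). A p that misses the threshold does not show that a ratio was the same.

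**Figure D4:**
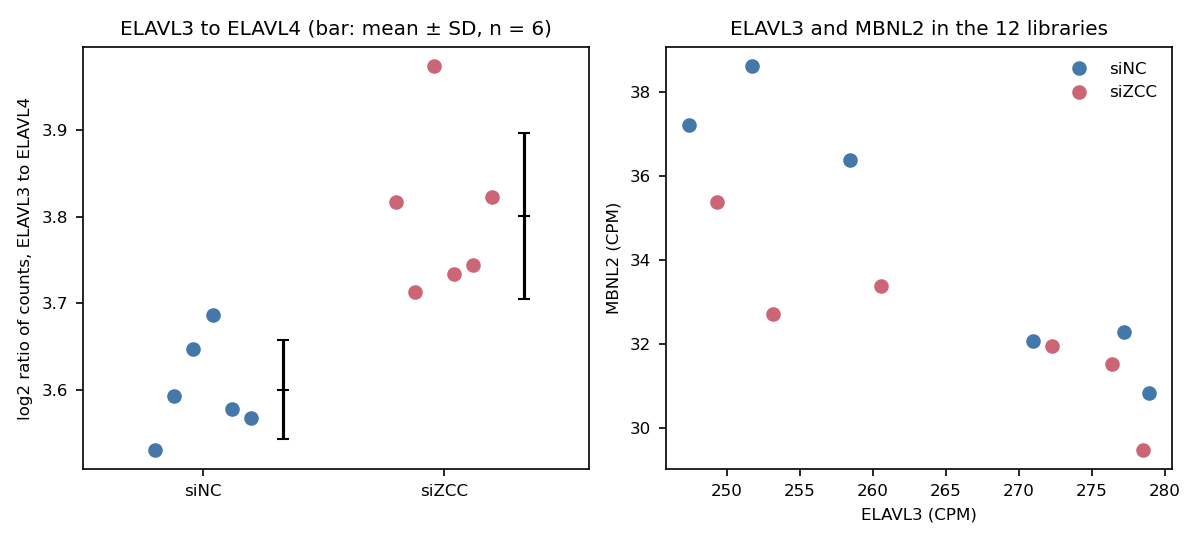
Left, log2 ratio of ELAVL3 to ELAVL4 counts in each library with the mean ± SD of 6 libraries, where all siZCC libraries (3.71 to 3.97) lie above all siNC libraries (3.53 to 3.69). Right, MBNL2 against ELAVL3 (both in TMM-scaled CPM, axes not from 0) in the 12 libraries, where MBNL2 is lower in the libraries with more ELAVL3.

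Members of different families also varied together between libraries of the same group. Deviations of log2 CPM from the group mean were correlated for all 45 pairs of members over the 12 libraries, a step added after seeing the data. Of these pairs, 13 had an adjusted p under 0.05 for Pearson's r in a permutation test of 100000 draws within groups. Pairs of other genes were not tested in this way, so this count cannot be called particular to the members. The neuronal genes ELAVL2, ELAVL3, ELAVL4, CELF3 and CELF4 were positively correlated, with Pearson's r from 0.59 to 0.94 in their 10 pairs, of which 7 passed. ELAVL3 and CELF4 were closest (r = 0.94, Spearman's rho = 0.94, permutation p = 2e-05 for both, adjusted p = 0.0009). Without the 2 libraries farthest from the median ELAVL3 level, r was 0.91.

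MBNL2 ran against these genes. Its r with ELAVL3 was -0.91 (rho = -0.91, permutation p = 0.00028 and 0.00035, adjusted p = 0.00383 for r), and -0.88 without the 2 farthest libraries. Across the 5 neuronal genes, r with MBNL2 ranged from -0.91 to -0.54, and 4 of 5 passed. CELF2 and MBNL1 formed another close pair (r = 0.87, rho = 0.80, permutation p = 0.00157 and 0.00464, adjusted p = 0.00935 for r). Its r was 0.67 without the 2 libraries farthest from the median of CELF2. MBNL1 and MBNL2 also moved together (r = 0.79, rho = 0.87, permutation p = 0.0052 and 0.00066, adjusted p = 0.0195 for r). By Spearman's rho 18 of the 45 pairs passed, among them ELAVL2 with CELF1 (rho = 0.69, permutation p = 0.012, adjusted p = 0.0348), while no pair of ELAVL1 passed by either measure.

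The widest gap in the ELAVL3 deviations, 0.062 on the log2 scale against 0.035 for the next, lay between 6 libraries at 247 to 261 CPM and 6 at 271 to 279 CPM, with 3 of each group on either side. Within the lower 6 and the upper 6, r of ELAVL3 was 0.80 and 0.76 with CELF4, 0.79 and 0.35 with CELF3, 0.44 and 0.51 with ELAVL4, and 0.68 and 0.91 with ELAVL2. With MBNL2 it was -0.50 and -0.64. The sign of r over 12 libraries held on both sides of the gap for these 5 genes but not for MBNL1, CELF2 and ELAVL1. MBNL1 had r = -0.66 over 12 libraries but 0.04 and 0.48 within the sides, and CELF2 had -0.45 over 12 but -0.02 and 0.53. The values for 6 libraries are a description, with no test. For CELF1, at 0.05 over 12 libraries, they were 0.47 and 0.81, and for ELAVL1, at -0.30 over 12, they were 0.18 and 0.51.

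**Figure D5:**
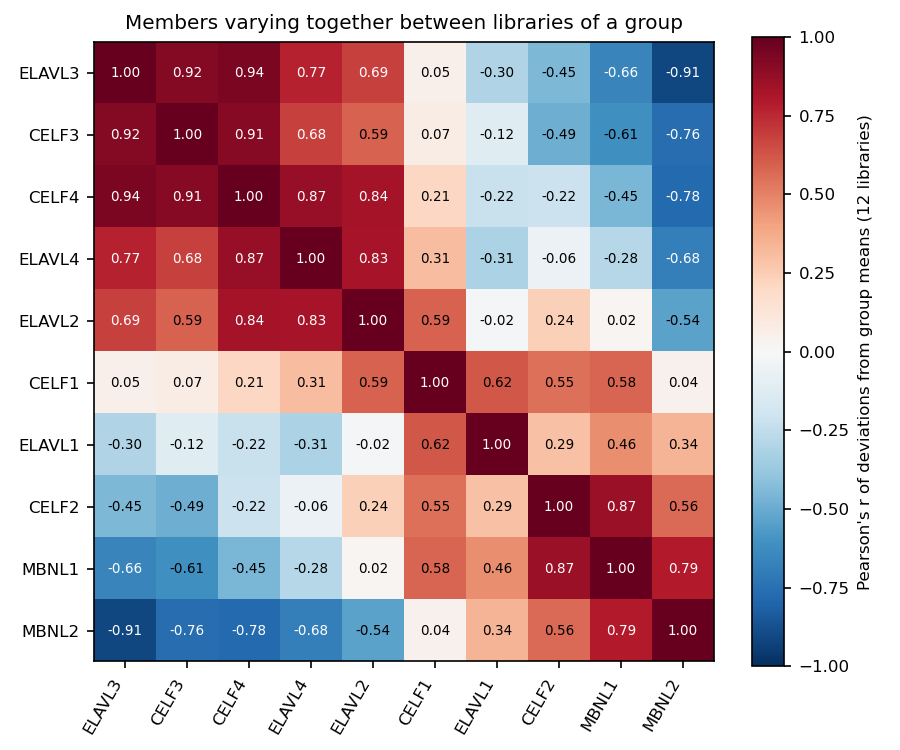
Pearson's r between the 10 genes over 12 libraries, computed on deviations of log2 CPM from the mean of the group (colour and number in each cell, from -1 to 1). The 5 genes at the upper left are positively correlated with each other (0.59 to 0.94) and negatively with MBNL2 (-0.91 to -0.54).

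One difference between these libraries is IL1B, a cytokine gene, which had 2 to 12 counts in 6 libraries and 449 to 1512 in the other 6, with 3 libraries of each group on either side. Within siZCC, 6 of the 10 members did not overlap between the high and low IL1B libraries, and within siNC all 10 overlapped. The share of all genes that did so was not counted, so these counts cannot be called particular to the members. CELF3 was at 168 ± 2.12 CPM in the 3 siZCC libraries with high IL1B and at 142 ± 5.71 in the 3 with low IL1B, and ELAVL3 and CELF4 were also higher with high IL1B. CELF2, MBNL1 and MBNL2 went the other way: MBNL2 was at 29.5 to 31.9 CPM with high and 32.7 to 35.4 with low IL1B, MBNL1 at 27.6 to 28.3 and 28.7 to 31.1, and CELF2 at 231.7 to 238.6 and 238.8 to 248.1, nearly touching. In siNC CELF3 was at 162 ± 12.5 and 156 ± 11.4 CPM (SD, n = 3 each). The difference in knockdown effect between the high and low IL1B libraries was 0.19 on the log2 scale for CELF3 (unadjusted p = 0.0349, adjusted p = 0.935 for the interaction in edgeR), and the interaction passed in 0 of 24671 genes, with 1177 at an unadjusted p under 0.05. After removing the means of both group and IL1B split, r among the 5 neuronal genes ranged from 0.40 to 0.90 and their r with MBNL2 from -0.91 to -0.45. ELAVL4 with CELF3 moved most among those 10 pairs, from 0.68 to 0.40, and ELAVL3 with CELF4 was at 0.89.

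ELAVL2 fell by 0.12 within the libraries with high IL1B and by 0.21 within those with low IL1B, and ELAVL4 by 0.12 and 0.27, none of which passed with 3 libraries a group (edgeR adjusted p = 0.19 and 0.171 for ELAVL2, 0.187 and 0.0761 for ELAVL4). The log2 ratio of ELAVL3 to ELAVL4 was higher in siZCC on both sides of the split, by 0.16 and 0.24, where 3 against 3 libraries cannot reach an exact p below 0.10.

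The level of the neuron markers also differed between the libraries. The mean log2 CPM of the 22 markers was 6.60 and 6.63 in siZCC replicates 3 and 6, the 2 libraries in which ELAVL2, ELAVL4, CELF3 and CELF4 were lowest, against 6.75 to 6.80 in the other siZCC libraries and 6.73 to 6.88 in siNC. With this mean as a covariate in the edgeR fit, the log2 fold change of ELAVL4 was -0.09 (adjusted p = 0.115), that of ELAVL2 -0.06 (adjusted p = 0.278) and that of CELF5 -0.08 (adjusted p = 0.0855). MBNL2 then passed, at -0.17 (adjusted p = 0.0147). The marker mean was measured after the knockdown, and of the 22 markers 7 fell and 1 rose in siZCC. A fit with this covariate therefore cannot separate the knockdown from the marker level. The part of the neuron and proliferation markers in these results was not tested.

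By a rule on likeness, the genes whose log2 CPM followed a member most closely over the 12 libraries were sought among the 12624 that averaged 5 CPM or more, for the member with the smallest p in each family. The values describe these libraries, which share their depth and scaling, and carry no p. ELAVL4 was followed by CERK (r = 0.95), a ceramide kinase, SLC1A1 (0.95), a neuronal glutamate transporter, and SULT4A1 (0.94), a brain sulfotransferase. Closest to CELF2 were ODF2L (0.96), MED12L (0.95) and CEP78 (0.95), of which ODF2L and CEP78 belong to centrosomes and cilia. MBNL2 was followed by MYOF (0.96), a membrane repair protein, ANO6 (0.95), a lipid scramblase, and IQGAP1 (0.95), a cytoskeletal scaffold.

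Genes that work with or under these proteins were described from lists. Beside them, 22.2% of all genes passed, and 32.1% of the genes at least as abundant as ELAVL4. Of 10 other proteins that bind AU-rich elements, 1 rose and 1 fell, with a median log2 fold change of -0.01. Both are relatives of tristetraprolin, which promote decay of the transcripts that ELAVL proteins stabilise. ZFP36L1 rose from 261 ± 25.9 to 358 ± 10.7 CPM (n = 6 each, log2 fold change 0.45, edgeR adjusted p = 1.4e-05), and ZFP36L2 fell from 128 ± 10.5 to 105 ± 6.74 CPM (-0.28, edgeR adjusted p = 0.000939). These changes were larger than that of any member.

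The machinery of deadenylation, decapping and the exosome, through which CELF1 acts, had 3 of 32 genes higher and 6 lower, with a median of -0.03. CNOT10, a subunit of the CCR4-NOT deadenylase, fell from 35.4 ± 0.848 to 31.0 ± 1.38 CPM (n = 6 each, edgeR adjusted p = 0.000597), and TOB1, an adaptor of the same complex, rose from 42.2 ± 1.27 to 45.9 ± 1.26 CPM (edgeR adjusted p = 0.00623). Among 12 ligands, transport factors and modifying enzymes of ELAVL1, 2 rose and 2 fell, with a median of -0.04. TNPO2, an import receptor of ELAVL1, rose from 303 ± 14.6 to 347 ± 10.2 CPM (n = 6 each, edgeR adjusted p = 0.000463), while NXF1, the general mRNA export receptor, fell from 82.4 ± 2.55 to 77.1 ± 1.96 CPM (edgeR adjusted p = 0.0224).

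Of 28 transcripts known as ELAVL targets, 26 were tested, 4 rose and 9 fell, with a median of -0.04. CDKN1A, the cell cycle inhibitor p21, rose from 651 ± 81.8 to 981 ± 80.9 CPM (n = 6 each, log2 fold change 0.59, edgeR adjusted p = 2.21e-05). CCNB1, the mitotic cyclin B1, fell from 50.2 ± 2.04 to 33.02 ± 2.14 CPM (-0.61, edgeR adjusted p = 1.17e-07), and it is also 1 of the 11 proliferation markers that fell. GAP43, a growth cone protein and the classic target of ELAVL4, fell from 452 ± 27.2 to 404 ± 31.3 CPM (-0.16, edgeR adjusted p = 0.0235), and it is also 1 of the neuron markers that fell. GAP43 was picked for its link to ELAVL4 and not by the rule for named genes, after its values were seen. Other listed targets, also named outside that rule, went otherwise. MYCN rose (log2 fold change 0.16, edgeR adjusted p = 0.018), and MAPT did not pass (-0.07, edgeR adjusted p = 0.511). Whether any of these changes follows from the level of ELAVL4 was not tested.

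Genes whose splicing MBNL and CELF proteins regulate were counted here at the level of the gene, which does not show exon use. Of 22 such genes 20 were tested, 6 rose and 2 fell, with a median of 0.04. DTNA, the dystrobrevin alpha gene, rose from 125 ± 3.65 to 150.1 ± 3.18 CPM (n = 6 each, log2 fold change 0.27, edgeR adjusted p = 4.42e-06). The genes that carry the repeats of myotonic dystrophy were DMPK, at 119.8 ± 8.17 and 122 ± 4.11 CPM (edgeR adjusted p = 0.764), and CNBP, which rose from 192 ± 7.27 to 206 ± 5.79 CPM (0.10, edgeR adjusted p = 0.0227).

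Lists of other cell types were measured too. Of 13 neural progenitor markers 4 rose and 1 fell, and of 8 astrocyte markers 3 rose and 1 fell. Of 7 mesenchymal markers 1 rose and 2 fell, and of the 5 tested oligodendrocyte lineage markers 1 fell. Muscle markers, of interest because of MBNL1, were summed to 7.50 to 9.17 CPM over the 3 of 7 genes tested, of which 1 fell. Microglia and leukocyte markers were summed to 1.21 to 2.35 CPM over the 3 of 7 tested, and none passed. Of 5 pluripotency markers 3 were tested and 2 rose. The part of these cell types in the members' levels was not tested.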

How the data were processed

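Raw counts, whole numbers for each gene symbol, were deposited by the authors with 1 column for each of 12 libraries of total RNA made with a directional kit, per the labels' protocols. Per the submitters' processing notes, bcl2fastq 2.17, STAR 2.7.6a, featureCounts 2.0.1 and the build GRCh38 were used. The annotation and strand setting are not given in the sources used here. Groups and replicate numbers come from the sample titles.

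The deposited counts went unchanged into edgeR 4.0.16 under R 4.3.3 (filterByExpr with a minimum count of 10, TMM factors, glmQLFit and glmQLFTest, no covariate), with Benjamini-Hochberg adjustment over 24671 genes and a threshold of 0.05. Intervals are 95%, and log2 CPM has a prior count of 2. The biological coefficient of variation was 6.55%, so replicate spread and not counting limits the precision. Ratios were tested by exact permutation, and correlations by 100000 permutations in Python 3.11.15 (numpy 2.4.6, scipy 1.17.1, pandas 2.3.3, matplotlib 3.10.9). The fit was tested on simulated data.

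Sequences, positions and lengths are from GENCODE release 29 on GRCh38. The members and the 17 gene lists were chosen with earlier results of these data known. Named genes are all members and other family genes, ZCCHC17, in each list the passing gene with the smallest p in each direction, and the 3 genes most like 1 member per family; marker lists are given mostly by counts. 1 result under this rule is left out of the text. Alternatives were other scalings and filters, DESeq2 1.42.0, limma 3.58.1 voom, a surrogate variable from sva 3.50.0, a neuron marker covariate, the IL1B split, thinning, a minimum change of 1.2-fold, the replicate number as a block and leaving out each library. A correction for GC content and length, which had values for 94.9% of genes and all members, was added after seeing the data.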

Additional observations from a re-analysis of the deposited data

Results flagged for a closer look

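Of 58 sets of 6 values examined (in each group, the log2 CPM of the 13 family genes and ZCCHC17, the 13 family ratios, the library totals and the mitochondrial share of counts), 3 held a sample far from the other 5, where chance gives about 2.9. CELF1 was lowest in siNC replicate 3, at 7.53 log2 CPM against 7.70 to 7.78 in the other siNC libraries. CELF6 was lowest in the same library, at -2.34 log2 CPM against -1.89 to -1.64. The library total of siNC replicate 4, 90755953 counts, lay below the 109973707 to 120023356 counts of the other siNC libraries.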

How the results depend on the processing

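With 2 of 10 members called, the count was also 2 with DESeq2 size factors, upper quartile scaling, no filter, a mean count of at least 50, the DESeq2 Wald test, limma voom, 1 surrogate variable, the IL1B split as a block, thinning, and the GC and length correction, which lost ELAVL2 (adjusted p = 0.0629) and gained CELF2. It was 1 with the neuron marker covariate, 0 in the libraries with high and 0 in those with low IL1B, where fewer samples enter. For a minimum change of 1.2-fold it was 0. In these edgeR fits, in that order, 3, 2, 4 and 0 members had an unadjusted p under 0.05. Leaving out 1 library gave 0 to 3. Over all genes these settings gave 5619, 2043, 1602 and 349 calls, against 5481.

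Same-numbered libraries showed little shared deviation over all genes (r from -0.077 to 0.018), which does not settle whether the numbers pair them. For every number, the siNC and siZCC libraries lay on opposite sides of the IL1B split. The fit with the replicate block also called 2 members, ELAVL2 (edgeR adjusted p = 0.00866) and ELAVL4 (edgeR adjusted p = 0.016).

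The 1 family ratio called became 0 in the high and 0 in the low IL1B libraries and 0 to 2 without 1 library. Changes near 0 turned sign. ELAVL3 was at -0.003232 with upper quartile scaling, -0.0006526 with no filter, -0.03747 in low IL1B libraries, -0.003455 when thinned, -0.01956 with the GC and length correction, and -0.01188 to 0.02131 without 1 library. CELF1 was at 0.02017 with the neuron covariate, 0.01463 in high IL1B libraries and -0.03512 to 0.01378 without 1 library. CELF3 was at 0.05989 with the covariate and 0.05286 in high IL1B libraries, and CELF4 at 0.03697 with the covariate. Of the ratios, in high IL1B libraries ELAVL2 to ELAVL4 differed by -0.004054, CELF1 to CELF3 by -0.03696 and CELF2 to CELF4 by -0.05998. In low IL1B libraries ELAVL1 to ELAVL3 differed by 0.003123, CELF2 to CELF3 by 0.06723 and MBNL1 to MBNL2 by -0.009637. Without 1 library, CELF1 to CELF3 ranged from -0.00596 to 0.0718, CELF2 to CELF3 from -0.06688 to 0.01605 and CELF2 to CELF4 from -0.01452 to 0.06391. The cause was not tested.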
